A study of Homo sapiens with 16 samples.

Results

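The comparison set the H3K27me3 peaks of MCF-10A cells against the H3K9me2 peaks of the same cells. All peaks on chromosomes 1 to 22 in the 4 lists of these marks were taken, which gave 75883 peaks of the 193384 in the 12 lists of the series. MCF-10A is an established, non-tumorigenic human breast epithelial line, labelled as breast tissue of luminal ductal type. Both groups were subconfluent cultures grown with epidermal growth factor, insulin, cholera toxin and hydrocortisone, with no other treatment named, and differed in the antibody: a rabbit polyclonal for H3K27me3 and a mouse monoclonal for H3K9me2. Each group held 2 replicates, which the labels call biological without saying that they came from separate cultures, so p-values measure the spread between these samples, which may be technical. The series, on DNA attached to the nuclear matrix, also holds 2 H3K4me3 lists of MCF-10A, the same 3 marks in the breast cancer line MDA-MB-231, grown subconfluent as well, and 4 input samples that were not analysed here. The lists name no gene, so the labelled cell type was not checked against markers.

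H3K27me3 is trimethylation of lysine 27 of histone H3. It is written by the Polycomb repressive complex PRC2 through its catalytic subunits EZH1 and EZH2, is known for broad domains over silent developmental regulator genes, and is associated with facultative heterochromatin. H3K9me2, dimethylation of lysine 9 of the same histone, is deposited largely by the enzymes G9a and GLP and is typical of large silent blocks, many of them gene poor and close to the nuclear lamina. Both marks accompany low transcription, whereas H3K4me3 marks active promoters and, together with H3K27me3, the bivalent promoters of some developmental genes.

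H3K27me3 was found as many narrow peaks and H3K9me2 as fewer and wider ones. The H3K27me3 lists held 28393 peaks in replicate 1 and 28371 in replicate 2, and the H3K9me2 lists held 10418 and 8701. On average there were 2.97 times as many H3K27me3 peaks. The median width was 629 and 622 bp for H3K27me3 against 1606 and 1577 bp for H3K9me2, or 625.5 ± 4.95 bp against 1591.5 ± 20.5 bp (SD, n = 2). The ranges of the replicates did not overlap for either measure. Because H3K9me2 peaks were wider, the covered length was closer between the marks, at 21.2 and 21.0 Mb for H3K27me3 against 18.6 and 15.3 Mb for H3K9me2. These amounts were 0.737% and 0.729% of the autosomes for H3K27me3 and 0.648% and 0.532% for H3K9me2. An exact two-sided permutation test of 2 libraries against 2 cannot give a p below 0.333, and it gave 0.333 for peak number, width and covered length alike.

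The width distributions overlapped only in part. Peaks over 1 kb made up 15.4% and 15.0% of the H3K27me3 lists and 96.6% and 97.0% of the H3K9me2 lists. The middle 90% of H3K27me3 peaks ran from 404 to 1489 bp in replicate 1 and from 405 to 1473 bp in replicate 2. For H3K9me2 the same range was 1038 to 3193 bp and 1058 to 3125 bp. The upper end of the H3K27me3 range thus fell within the H3K9me2 range. Only 10 and 9 H3K27me3 peaks exceeded 5 kb, against 78 and 58 H3K9me2 peaks. The widest H3K9me2 peak lay at the same place in both replicates, on chromosome 3 from 13743399 to 13757709 in replicate 1 and from 13743318 to 13757756 in replicate 2 (hg19, positions counted from 1). The widest H3K27me3 peaks were 7613 bp on chromosome 1 and 8953 bp on chromosome 8, and so were not at a shared place.

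**Figure D1:**
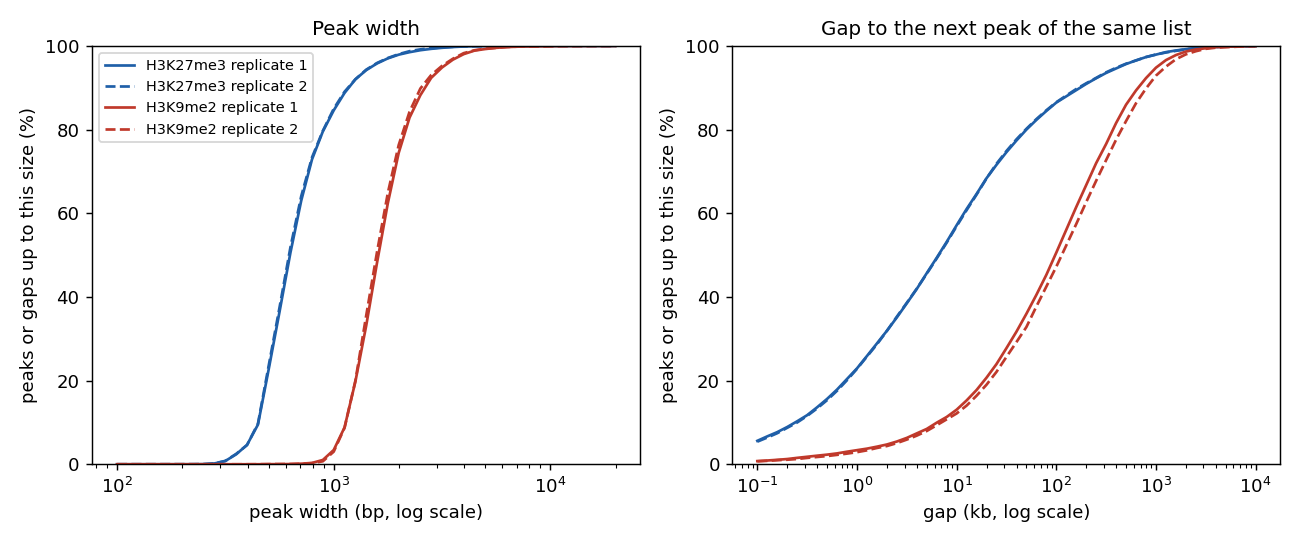
Cumulative share of peaks by peak width (bp) and by gap to the next peak of the same list (kb), both on log axes, for the 4 MCF-10A libraries, 1 line each. The H3K27me3 lines rise around 625.5 bp and the H3K9me2 lines around 1591.5 bp in width, and the gaps of H3K27me3 are far shorter.

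The spacing of peaks along the chromosomes differed more than their width. The median gap from one H3K27me3 peak to the next was 6564 and 6576 bp, against 97514.5 and 113681 bp for H3K9me2. Gaps under 10 kb followed 57.1% and 56.9% of H3K27me3 peaks but 13.0% and 12.1% of H3K9me2 peaks. When peaks with gaps of at most 10 kb were joined into runs, 24.6% and 24.9% of H3K27me3 peaks stood alone. Among H3K9me2 peaks 77.2% and 78.6% stood alone. Runs of 5 peaks or more numbered 1262 and 1304 for H3K27me3 and held 39.98% and 40.4% of its peaks. H3K9me2 had 33 and 24 such runs, with 1.86% and 1.61% of its peaks.

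The longest H3K27me3 runs by peak number lay on the short arm of chromosome 8. Replicate 1 held 73 peaks between 11439887 and 11603110, and replicate 2 held 65 peaks between 11469606 and 11619735. These stretches overlap, so the densest run was found at the same place in both libraries. The largest H3K9me2 runs held 14 peaks, on chromosome 1 from 228744123 to 228781988, and 11 peaks, on chromosome 8 from 140512753 to 140570734, and these were not at the same place. Runs longer than 50 kb numbered 113 and 111 for H3K27me3 and 1 and 2 for H3K9me2. H3K27me3 was thus recorded in large part as chains of short peaks and H3K9me2 mostly as separate peaks.

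The marks seldom overlapped. With at least 1 shared base counted, 5.17% and 5.15% of H3K27me3 peaks touched a peak of H3K9me2 replicate 1, and 4.12% and 4.11% touched one of replicate 2. In the other direction, 11.8% of the peaks of H3K9me2 replicate 1 and 11.2% of those of replicate 2 touched an H3K27me3 peak, whichever H3K27me3 replicate was used. This order turned when the lists were cut to equal length by score, with 5.79% of H3K27me3 and 5.19% of H3K9me2 peaks overlapping on average. With peaks of score 100 or more the shares were 2.33% and 7.44%. Replicates of one mark shared far more, with 45.6% and 45.8% of H3K27me3 peaks and 58.1% and 69.7% of H3K9me2 peaks touching the other replicate. The Jaccard index, the bases covered by both lists over those covered by either, was 0.0250 to 0.0285 in the 4 pairs across marks. It was 0.261 between the H3K27me3 replicates and 0.436 between the H3K9me2 replicates. The lists come from populations of cells, so a shared place does not show that the marks sat on the same chromosome copy, and fewer marked cells cannot be told apart from less of a mark per cell.

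Overlap was low in absolute terms but above the share of the genome that either mark covered. H3K9me2 peaks took in 4.19% to 5.22% of the bases of H3K27me3 peaks, and H3K27me3 peaks took in 5.81% to 5.90% of the bases of H3K9me2 peaks. Each of these shares was 7.89 to 8.10 times the share of the autosomes covered by the second mark. That autosome length, 2880 Mb, includes assembly gaps where no peak can lie. Where the marks met, 64.4% to 66.6% of the H3K27me3 peaks lay wholly inside an H3K9me2 peak, and 1.65% to 2.12% of the H3K9me2 peaks lay wholly inside an H3K27me3 peak. Of the overlapping H3K9me2 peaks, 82.4% to 83.6% held a single H3K27me3 peak, and the most held by one was 6. Overlapping peaks were somewhat wider than the others: the medians were 695 to 723.5 bp against 618 to 626 bp for H3K27me3, and 1724 to 1747.5 bp against 1559 to 1592 bp for H3K9me2. A wider peak meets the rule of at least 1 shared base more easily, and the part of width was not tested.

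Most peaks lay at a distance from the other mark. From an H3K27me3 peak, the median distance to the nearest H3K9me2 peak was 40.6 and 41.3 kb with H3K9me2 replicate 1 and 53.1 and 53.7 kb with replicate 2. From an H3K9me2 peak, the median distance to H3K27me3 was 43.0 to 44.4 kb in the 4 pairs. Between replicates of one mark it was 235 and 227 bp for H3K27me3 and 0 for H3K9me2. The medians across marks were similar in both directions although the H3K27me3 lists were longer. With lists cut to equal length by score, they moved apart, to 43.2 kb from H3K27me3 and 149.9 kb from H3K9me2. With peaks of score 100 or more they moved the other way, to 212 kb from H3K27me3 and 109.8 kb from H3K9me2.

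The tails of the distances were unequal. Within 10 kb of the other mark lay 18.5% to 22.4% of H3K27me3 peaks and 29.3% to 29.9% of H3K9me2 peaks. Beyond 1 Mb lay 0.589% to 1.17% of H3K27me3 peaks, 167 to 332 of them, and 6.06% to 6.18% of H3K9me2 peaks, 528 to 644 of them. In the lists as deposited, H3K9me2 peaks were thus both more often near H3K27me3 and more often far from it. The H3K27me3 lists hold 2.97 times as many peaks, and these shares were not recomputed at equal list lengths. The farthest H3K27me3 peak was 3.79 to 3.88 Mb from H3K9me2, and the farthest H3K9me2 peak was 5.90 to 6.10 Mb from H3K27me3.

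**Figure D2:**
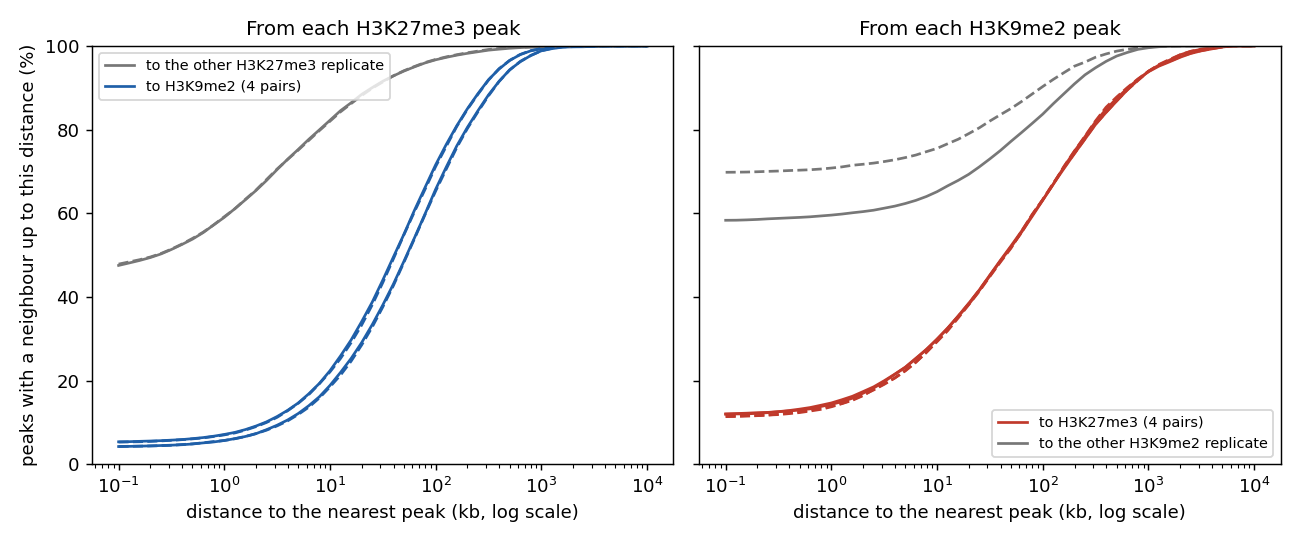
Cumulative share of peaks by distance to the nearest peak of the other mark, on a log axis in kb, for the pairs of MCF-10A libraries across marks and between replicates. In these lists of unequal length, up to 29.9% of H3K9me2 and 22.4% of H3K27me3 peaks lie within 10 kb of the other mark, and up to 6.18% and 1.17% lie beyond 1 Mb.

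Long stretches held one mark alone. Stretches of at least 2 Mb with no H3K27me3 peak in either replicate numbered 188 and spanned 734 Mb, or 25.5% of the autosomes. They held 1185 and 968 H3K9me2 peaks, which were 11.4% and 11.1% of those lists, and 158 of them held H3K9me2 in both replicates. Stretches of that length with no H3K9me2 peak numbered 110 and spanned 415 Mb, or 14.4%. They held 621 and 643 H3K27me3 peaks, which were 2.19% and 2.27% of those lists. Of these 110 stretches, 77 held H3K27me3 in both replicates. Each mark thus had a smaller share of its peaks in these stretches than their share of the autosomal length. That length includes assembly gaps where no peak can lie, and their part was not tested.

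Examples of both kinds were large. On chromosome 13 the 12.05 Mb from 79576621 to 91629335 held no H3K27me3 peak and 43 and 37 H3K9me2 peaks. On chromosome 4 the 6.10 Mb from 100719856 to 106816571 held none and 30 and 21. In the opposite sense, the stretch of chromosome 2 from 14875587 to 16929821 held no H3K9me2 peak and 38 and 45 H3K27me3 peaks, and that of chromosome 17 from 48264643 to 51724598 held 33 and 34. The examples are among the stretches with the most places covered in both replicates of the other mark. The likeness of the replicates in them is thus partly set by the choice.

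Merging the peaks of the 4 libraries wherever they touched gave 52726 regions. Of these, 10535 (19.98%) had H3K27me3 in both replicates and no H3K9me2, 4896 (9.29%) had H3K9me2 in both and no H3K27me3, and 491 (0.931%) were found in all 4 libraries. A further 66.9% were found in 1 library only. Of the 11386 regions with H3K27me3 in both replicates, 4.31% had H3K9me2 in both and 92.5% had none. Of the 5972 regions with H3K9me2 in both replicates, 8.22% had H3K27me3 in both and 82.0% had none. The bases covered in all 4 libraries came to 369 kb in 572 pieces, against 8.74 Mb covered in both H3K27me3 libraries and 10.3 Mb covered in both H3K9me2 libraries. The counts grow when a library is left out, since fewer lists must then hold a peak. Without H3K27me3 replicate 1 or 2 there were 26650 or 26656 H3K27me3-only regions and 784 or 773 with both marks. Without H3K9me2 replicate 2 there were 8683 H3K9me2-only regions and 740 with both marks.

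In each class the 5 regions with the longest stretch covered in every library concerned were examined. For a single mark, only regions over 50 kb from any peak of the other were taken, which were 4306 (40.9%) of the H3K27me3-only and 2423 (49.5%) of the H3K9me2-only regions. On chromosome 1 from 2583207 to 2588839 all 4 libraries covered a common 4539 bp, with 91.5% and 83.2% of the region under H3K27me3 peaks and 98.0% and 96.7% under H3K9me2 peaks. On chromosome 6 from 161047539 to 161052279 the common stretch was 3048 bp. A further region of this class was on chromosome 7 from 56437881 to 56440953, with 2851 bp. The isolated H3K27me3-only region with the longest stretch, 4327 bp on chromosome 16 from 1966762 to 1971217, was 59.0 kb from the nearest H3K9me2 peak. The H3K27me3-only region on chromosome 7 from 100813054 to 100817020 was 126 kb from one. Among the 5 listed regions with H3K27me3 only, just the one on chromosome 22 from 28193561 to 28197648 carried H3K4me3 in both libraries, over 7.73% and 13.8% of its length.

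H3K9me2-only regions reached greater lengths. The longest common stretch was 9743 bp on chromosome 14 from 19817069 to 19828464, which was 192 kb from the nearest H3K27me3 peak. The next were 9274 bp on chromosome 2 from 132514355 to 132524189 and 7685 bp on chromosome 11 from 62288471 to 62300113. On chromosome 16 the H3K9me2-only region from 1784316 to 1790741, with 6282 bp in common, was 106 kb from the nearest H3K27me3 peak. It lay in the same 1 Mb window as the H3K27me3-only region of chromosome 16 named above. The annotation of hg19 was not used here, so no gene is assigned to these regions.

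H3K4me3 and the marks of MDA-MB-231 were not used to define the classes. H3K4me3 in both MCF-10A libraries overlapped 2.56% of the H3K27me3-only regions, with an exact Clopper-Pearson 95% interval of 2.27% to 2.88%. The share was 3.66% (3.15% to 4.22%) for H3K9me2-only regions and 1.83% (0.842% to 3.45%) for regions with both marks, or 9 of 491. These intervals cover counting error only. By single library, the H3K27me3-only and H3K9me2-only regions had 2.80% and 3.88% with H3K4me3 replicate 1 and 4.06% and 4.11% with replicate 2, so a difference was seen with replicate 1 only. The H3K9me2-only regions were also the wider, and the part of width was not tested. All 3 shares were low, so few of the regions had the active promoter mark at all. They were above the 0.812% of the 36804 regions in none of these classes, which were narrower, with a median of 618 bp.

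Regions with both marks in MCF-10A were the class most often marked in MDA-MB-231. H3K9me2 peaks of both MDA-MB-231 replicates touched 31.6% of them, 13.2% of the H3K9me2-only regions and 2.39% of the H3K27me3-only regions. H3K27me3 peaks of both MDA-MB-231 replicates touched 14.7%, 1.00% and 9.82% of the same classes. Among the regions in none of these classes the shares were 2.83% for H3K9me2 and 2.62% for H3K27me3. The order of the classes thus followed the mark each carried in MCF-10A, with the regions of both marks highest for each. The regions of both marks were also wider, with a median of 2480 bp against 1853 bp for H3K9me2-only and 1059 bp for H3K27me3-only regions, and the part of width in these shares was not tested. The list of MDA-MB-231 H3K27me3 replicate 1 is short, with 8408 autosomal peaks against 30238 in replicate 2, and lowers every share that asks for both.

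To compare the marks over larger distances, the bases under peaks in windows of 1 Mb were divided by the covered length of each library, giving bp per covered Mb. Of 2894 windows, the 1955 with a mean of at least 100 over the 4 libraries were tested with limma on the log2 scale after adding 10. At a Benjamini-Hochberg adjusted p under 0.05, 390 windows (19.9% of those tested) were higher in H3K27me3 and 701 (35.9%) were higher in H3K9me2, so that 55.8% differed in either direction. The median log2 difference of H3K27me3 minus H3K9me2 over all windows tested was -0.48. The split of the calls moved with the scaling, the score filter and the libraries. H3K27me3 took 35.7% of the calls in the main fit, 45.2% with unscaled kilobases and 50.8% once the differences were centred on their median. With peaks of score 100 or more it took 52.2%. Without H3K27me3 replicate 1 or 2, 157 or 149 windows were higher in H3K27me3 and 560 or 536 in H3K9me2, so H3K27me3 took 21.9% or 21.8% of the calls. Without H3K9me2 replicate 1 or 2, the counts were 362 or 342 and 238 or 235, and the share of H3K27me3 was 60.3% or 59.3%. Which mark had more windows called was therefore not settled by these libraries.

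The kinds of window differed in the level of the second mark. Windows higher in H3K27me3 had medians of 963 and 983 bp per covered Mb of H3K27me3 against 269 and 232 of H3K9me2, with 27 and 28 peaks against 3 and 2. H3K9me2 was still covered in both replicates in 342 of these 390 windows and absent from both in 26. Windows higher in H3K9me2 had medians of 434 and 457 of H3K9me2 against 46.2 and 49.8 of H3K27me3, with 5 and 4 peaks against 2 and 2. H3K27me3 was absent from both replicates in 185 of these 701 windows and covered in both in 428. The windows higher in H3K27me3 held 51.5% and 51.9% of all H3K27me3 coverage and 16.8% and 16.3% of H3K9me2 coverage. Those higher in H3K9me2 held 41.8% and 43.3% of H3K9me2 coverage and 9.49% and 9.41% of H3K27me3 coverage. In the windows with no call the medians were 282 and 277 of H3K27me3 and 304 and 287 of H3K9me2. Against those, windows higher in H3K27me3 had far more H3K27me3 and only slightly less H3K9me2, and windows higher in H3K9me2 had somewhat more H3K9me2 and far less H3K27me3. The calls themselves rest on these values, which are given as a description.

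**Figure D3:**
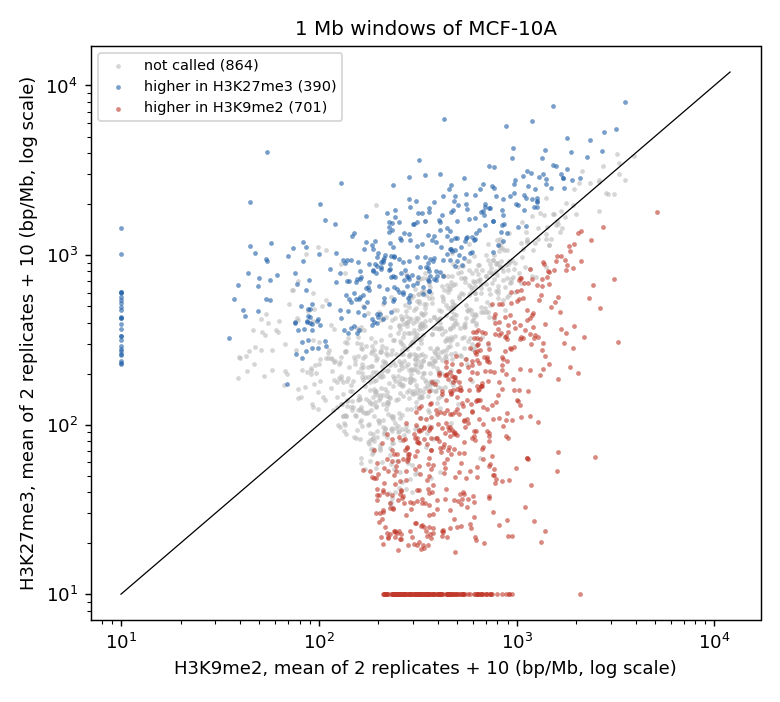
Mean coverage of H3K9me2 against mean coverage of H3K27me3 in each 1 Mb window tested, in bp per covered Mb plus 10 on log axes, coloured by the limma call at an adjusted p under 0.05. The 390 windows higher in H3K27me3 and the 701 higher in H3K9me2 lie on either side of the diagonal, with a group of windows high in both marks.

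Among the windows named by their difference, the one on chromosome 17 from 77000001 to 78000000 had the most H3K27me3. Its coverage was 6398 and 6337 bp per covered Mb of H3K27me3 in 147 and 151 peaks, against 462 and 379 of H3K9me2 in 5 and 3 peaks. The difference was 3.90 on the log2 scale (SE 0.142, limma adjusted p = 0.000359). The window on chromosome 3 from 14000001 to 15000000 had the largest difference of those named as higher in H3K27me3, 4.39 (SE 0.367, limma adjusted p = 0.00155). It had 2244 and 3021 of H3K27me3 against 158 and 82.4 of H3K9me2. A pair of windows of chromosome 11 was named as well. The one starting at 117000001 had 3834 and 3399 of H3K27me3 against 307 and 314 of H3K9me2, a log2 difference of 3.50. The one starting at 43000001 had 984 and 958 against 53.5 and 65.6, with a single H3K9me2 peak in each replicate. On chromosome 20 the window from 61000001 held 149 and 148 H3K27me3 peaks and the window from 2000001 held 86 and 83, with log2 differences of 2.71 and 3.33. The windows of chromosome 1 from 154000001, chromosome 8 from 81000001 and chromosome 9 from 117000001 had log2 differences of 3.92, 2.88 and 3.84. In the chromosome 9 window 38 and 37 H3K27me3 peaks stood against 1 H3K9me2 peak in each replicate, and MDA-MB-231 had 1 and 0 H3K27me3 peaks there. The windows were chosen for their difference, so these values are a description.

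Windows named for higher H3K9me2 ranged from 1 to 16 H3K27me3 peaks in a library. Those on chromosomes 2 (from 132000001), 16 (from 81000001) and 7 (from 143000001) had 12 and 10, 16 and 12, and 10 and 10, against 11 and 11, 21 and 23, and 23 and 20 of H3K9me2. On chromosome 5 from 125000001 to 126000000 there was 1 H3K27me3 peak in each replicate and 11 and 10 H3K9me2 peaks, and the log2 difference was -5.07 (SE 0.376, limma adjusted p = 0.00107). On chromosome 14 from 19000001 to 20000000 coverage was 79.9 and 28.2 of H3K27me3 against 2363 and 2626 of H3K9me2, a difference of -5.41 (SE 0.478, limma adjusted p = 0.00186). That window is the first of chromosome 14 with any peak and holds the isolated H3K9me2-only region with the longest stretch. On chromosome 16 from 81000001 to 82000000 H3K9me2 reached 2390 and 2885, the most of the named windows on this side, over 486 and 465 of H3K27me3. The log2 difference there was -2.44, and MDA-MB-231 had no H3K9me2 peak in this window. Another 5 windows had differences between -4.80 (chromosome 7 from 16000001) and -2.37 (chromosome 7 from 143000001). The last was -0.52 with peaks of score 100 or more (limma adjusted p = 0.609), which ended its call. The differences on chromosomes 14 and 19 did not pass at the threshold when either H3K9me2 replicate was left out, with adjusted p between 0.051 and 0.054.

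The window of chromosome 19 from 58000001 to 59000000 stood apart by its H3K4me3. It had 1476 and 1691 bp per covered Mb of H3K9me2 and 61.7 and 24.4 of H3K27me3, a log2 difference of -5.0 (SE 0.463, limma adjusted p = 0.00212). Its H3K4me3 coverage was 2375 and 2158, in 38 and 39 peaks. The other named windows on the H3K9me2 side had at most 10 H3K4me3 peaks in a library. This was a window with many H3K4me3 peaks and many H3K9me2 peaks but almost no H3K27me3.

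Some called windows lay side by side. Runs of 3 or more held 28.5% of the windows higher in H3K27me3 and 33.5% of those higher in H3K9me2. These kinds made up 19.9% and 35.9% of the windows tested, and how many neighbours that alone would give was not tested. The windows higher in H3K27me3 formed 259 runs, 179 of them of 1 window, and the longest took in 7 windows. That run, on chromosome 12 from 1 to 7000000, held 308 H3K27me3 peaks in each replicate against 40 and 30 H3K9me2 peaks. On chromosome 17 from 33000001 to 39000000 there were 203 and 218 against 17 and 15. On chromosome 1 from 201000001 to 206000000 there were 157 and 168 against 15 and 19. The mean H3K27me3 coverage of that run was 1087 and 1135 bp per covered Mb in MCF-10A and 2673 and 3190 in MDA-MB-231. Its mean H3K9me2 coverage was also higher in MDA-MB-231, at 1110 and 1376 against 307 and 400 in MCF-10A. Each value is relative to the covered length of its own list.

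Windows higher in H3K9me2 formed 445 runs, 302 of them of 1 window, and the longest took in 9. That run, on chromosome 5 from 21000001 to 30000000, held 39 and 32 H3K9me2 peaks, 2 and 1 H3K27me3 peaks and 3 and 4 H3K4me3 peaks. On chromosome 8 from 85000001 to 93000000 there were 61 and 43 H3K9me2 peaks against 20 and 24 of H3K27me3. On chromosome 3 from 94000001 to 100000000 there were 36 and 33 against 11 and 17. In MDA-MB-231 the chromosome 3 run held no H3K9me2 peak in either replicate and 0 and 2 H3K27me3 peaks. The long runs of H3K9me2 were thus made of scattered peaks over megabases, whereas those of H3K27me3 were dense.

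The H3K4me3 lists and the MDA-MB-231 lists, which had no part in the calls, were lined up with the called windows. Median H3K4me3 coverage was 443 and 453 bp per covered Mb in windows higher in H3K27me3, 329 and 328 in windows with no call, and 216 and 214 in windows higher in H3K9me2. The order was the same in both libraries. In MDA-MB-231, median H3K27me3 coverage was 560 and 547 in the windows higher in H3K27me3 in MCF-10A, 113 and 114 in those with no call and 0 in both replicates in those higher in H3K9me2. Median H3K9me2 coverage in MDA-MB-231 was 162 and 201, 114 and 132, and 81.4 and 0 in the same groups. The windows higher in H3K9me2 in MCF-10A thus did not have the most H3K9me2 in MDA-MB-231.

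The difference between the marks in MDA-MB-231 was above 0 in 75.6% of the windows higher in H3K27me3 in MCF-10A, against 41.4% of all windows tested. It was below 0 in 48.8% of those higher in H3K9me2, against 37.8% of all. In the same windows it was above 0 in 17.7%, against 41.4% of all, and the rest stood at 0. With only the longer H3K27me3 list of MDA-MB-231, the share above 0 in the windows higher in H3K27me3 was 77.7%. A limma interaction of mark and line over 8 libraries, on 1734 windows, compared the differences directly. It called 165 windows (9.52%) further towards H3K27me3 in MCF-10A than in MDA-MB-231 and 267 (15.4%) further towards H3K9me2. Both lines entered this fit, so the MCF-10A values are shared between it and the calls above, and nothing is read from their overlap. Without MCF-10A H3K27me3 replicate 1 or 2 the first count was 102 or 106, and without MCF-10A H3K9me2 replicate 1 or 2 the second was 167 or 164.

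How far coverage of the marks rose together depended on the windows taken. Across the 1955 windows tested, which were selected on the mean of the same 4 libraries, Spearman's rho was 0.960 between the H3K27me3 replicates and 0.814 between the H3K9me2 replicates, and 0.183 to 0.242 in the 4 pairs across marks. H3K27me3 followed H3K4me3 more closely, at 0.360 to 0.383, than H3K9me2 did, at 0.0688 to 0.107. Across all 2526 windows with coverage in any library, rho was 0.373 to 0.403 across marks, 0.371 to 0.396 between H3K27me3 and H3K4me3, and 0.160 to 0.183 between H3K9me2 and H3K4me3. These values describe windows, which share a library and differ in mappable length and base composition, and are not tests.

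Windows rich in one mark and poor in the other were uncommon. A window was called rich when it lay in the top 10% of the 2526 windows with any coverage in both replicates of a mark, and poor when below the median in both. H3K27me3 had 232 rich windows and H3K9me2 had 202. Of these, 93 were rich in both marks, which is 40.1% of the H3K27me3-rich and 46.0% of the H3K9me2-rich windows. Only 27 (11.6%) were rich in H3K27me3 and poor in H3K9me2, and 17 (8.42%) were rich in H3K9me2 and poor in H3K27me3. The latter count was 27 or 30 without H3K9me2 replicate 1 or 2. Among all 2526 windows, 9.18% were rich in H3K27me3 and 7.997% in H3K9me2. Windows rich in either mark were thus more often rich in the other than all windows were. Most of them were still not rich in the other mark, and few were poor in it. By the definition at most 50% of all windows can be poor in a mark, and their exact share was not tested.

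Among windows rich in H3K27me3 and poor in H3K9me2, the one on chromosome 10 from 102000001 to 103000000 had 4145 and 3960 bp per covered Mb of H3K27me3 against 89.9 and 0 of H3K9me2. Among those of the opposite kind, the window on chromosome 7 from 46000001 to 47000000 had 2023 and 2140 of H3K9me2 and none of H3K27me3. No peak of the other marks or of MDA-MB-231 was listed in it. Among those rich in both, the window on chromosome 16 from 86000001 to 87000000 had 7556 and 8319 of H3K27me3 and 3147 and 3860 of H3K9me2.

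Windows rich in both marks were gathered on a few chromosomes. Chromosome 8 held 22 of the 93, chromosome 7 held 15, chromosome 16 held 14 and chromosome 5 held 10. These 4 chromosomes, picked after their values were seen, held 61 windows, or 65.6%, on 20.02% of the autosomal length. They also held 245 (49.9%) of the 491 regions with both marks. Of the covered bases they held 32.1% and 32.6% for H3K27me3 and 37.6% and 39.7% for H3K9me2. Those 491 regions fell in 304 windows, and 34.0% of them lay in the 40 windows with 3 or more. The window with the most, 8, was on chromosome 19 from 41000001 to 42000000, where coverage was 4731 and 4722 of H3K27me3 and 2355 and 2335 of H3K9me2. Of all 491 regions, 176 (35.8%) lay in windows higher in H3K27me3, 117 (23.8%) in windows higher in H3K9me2 and 197 (40.1%) in tested windows with no call. These kinds make up 13.5%, 24.2% and 29.9% of all windows, and 19.9%, 35.9% and 44.2% of the windows tested. The windows not tested, 32.4% of all, held 1 of the regions.

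The share of each library's covered bases was also compared for whole autosomes. With limma, 8 of the 22 (36.4%) had a higher share of H3K27me3 at an adjusted p under 0.05: chromosomes 10, 11, 15, 17, 19, 20, 21 and 22. Another 8 (36.4%) had a higher share of H3K9me2: chromosomes 2, 4, 5, 7, 8, 13, 14 and 18. The shares of a library sum to the whole, so these values depend on each other. The call on chromosome 2, with a log2 difference of -0.12, was lost without either H3K27me3 replicate.

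Chromosome 20 differed most towards H3K27me3, with 4.48% and 4.49% of H3K27me3 coverage against 1.88% and 1.73% of H3K9me2 coverage. That is 1.32 on the log2 scale (SE 0.0480, limma adjusted p = 6.30e-06). Chromosome 17 followed with 4.75% and 4.81% against 2.15% and 2.13%, a log2 difference of 1.16 (SE 0.0332). Chromosome 4 differed most towards H3K9me2, with 2.62% and 2.52% of H3K27me3 against 4.90% and 4.71% of H3K9me2, a difference of -0.90 (SE 0.0411, limma adjusted p = 1.02e-05). Chromosome 18 followed at -0.70. Replicates did not overlap across marks on any of these.

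**Figure D4:**
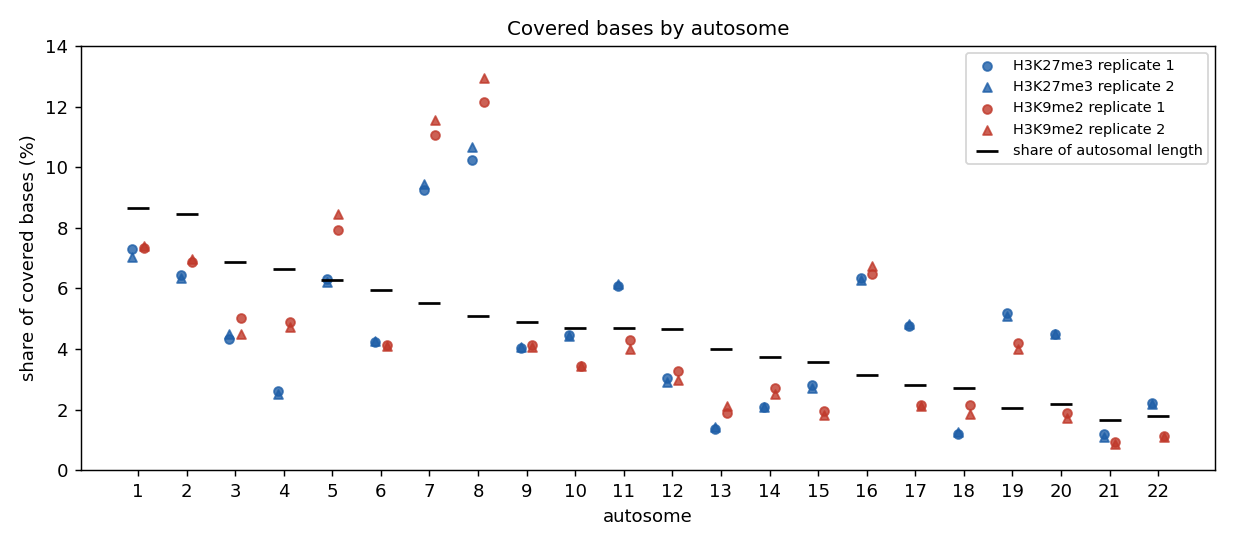
Share of each library's covered bases on each autosome, in percent, for the 2 H3K27me3 and the 2 H3K9me2 libraries, with the share of autosomal length beside them. Chromosomes 17 and 20 sit higher in H3K27me3, chromosome 4 sits higher in H3K9me2, and chromosomes 7 and 8 exceed their share of length in both marks.

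Chromosomes 7, 8, 16 and 19 were among those that carried more of both marks than their length. Chromosome 8 makes up 5.08% of the autosomal length and held 10.2% and 10.7% of H3K27me3 coverage and 12.2% and 13.0% of H3K9me2 coverage. Its share of H3K4me3 coverage was 4.10% and 4.02%. Chromosome 7, with 5.52% of the length, held 9.24% and 9.43% of H3K27me3 and 11.1% and 11.6% of H3K9me2, against 5.42% and 5.31% of H3K4me3. Chromosome 16, with 3.14%, held 6.36% and 6.28% of H3K27me3, 6.47% and 6.74% of H3K9me2, and 4.92% and 4.87% of H3K4me3. Chromosome 19, with 2.05%, held 5.20% and 5.10% of H3K27me3, 4.198% and 3.99% of H3K9me2, and a still larger share of H3K4me3, 6.66% and 6.74%. On chromosomes 7 and 8 the excess was thus seen in both repressive marks and not in H3K4me3. Copy number was not measured here.

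Both marks were dense near the ends of the chromosomes. The last 2 Mb at each end make up 3.06% of the autosomal length and held 7.94% and 7.67% of H3K27me3 coverage against 7.31% and 7.51% of H3K9me2 coverage, or 7.80% ± 0.194 against 7.41% ± 0.136 (SD, n = 2). An exact permutation test gave p = 0.333, the smallest possible. Counted as peaks and not as bases, the small difference turned its direction. H3K4me3 gave 7.37% in both libraries, close to both repressive marks. In the first 1 Mb from an end H3K9me2 was the denser, at 965 and 975 against 853 and 824 bp per covered Mb of H3K27me3. Between 1 and 2 Mb the order was the opposite, with 951 and 918 of H3K27me3 against 697 and 730 of H3K9me2. The gap was wider still from 2 to 5 Mb, with 806 and 802 against 524 and 505, and the log2 ratio of the shares was 0.37 within 5 Mb against 0.075 within 2 Mb. Beyond 40 Mb both were low, and H3K9me2 was again the denser, at 313 and 314 against 242 and 245.

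**Figure D5:**
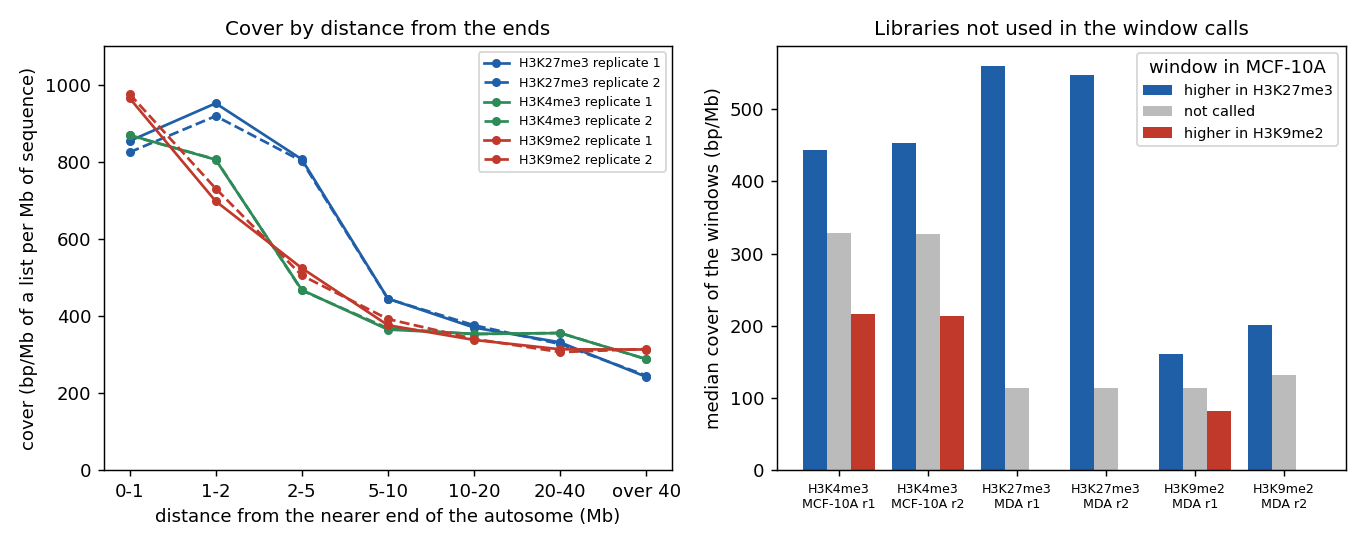
Coverage in bp per covered Mb by distance from the nearest chromosome end, and median coverage of H3K4me3 and of the MDA-MB-231 lists in windows grouped by their call in MCF-10A. H3K27me3 falls from 853 and 824 in the first 1 Mb to 242 and 245 beyond 40 Mb, and the windows higher in H3K27me3 have the highest H3K4me3 medians (443 and 453).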

How the data were processed

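The authors deposited 1 peak list per replicate, giving each peak a position, a name and a score. The scale of the deposited score is not stated, and it served only to filter or rank peaks within a list. Per the submitters' processing notes, the build was hg19 and the tools were Bowtie2, MACS 1.4, CASAVA 1.6 and bedtools. Their roles and settings, and any use of the inputs, are not given in the sources used here. The lists carry no read counts. Depth is therefore unknown, and precision is limited by having 2 replicates of each mark.

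The labels gave each sample its mark and line. Peaks on X, Y and unplaced contigs, 2.14% to 2.64% of the 4 lists, were left out. Autosome lengths were taken as the largest peak end in any of the 12 lists. Overlap meant at least 1 shared bp. Peak measures were compared with exact two-sided permutation tests. Windows of 1 Mb and autosome shares were tested with limma 3.58.1 in R 4.3.3, with Benjamini-Hochberg adjustment. Other steps used Python 3.11.15, NumPy 2.4.6, SciPy 1.17.1, pandas 2.3.3 and matplotlib 3.10.9. The code was tested on simulated data.

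Named windows were, in each direction and among those covered in all 4 libraries, the 5 with the smallest limma p and the 5 with the largest difference. The 3 longest runs of called windows were named too. Named regions had the longest stretch covered in all libraries concerned, and for a single mark lay over 50 kb from the other. The members, lists and rules were chosen with earlier results of these data known. Alternatives were score filters, equal list lengths, other overlap rules, window sizes, scalings and pseudocounts, the replicate block and leaving out each replicate. Gene groups were not analysed here because the reference at hand is of another build.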

Additional observations from a re-analysis of the deposited data

Results flagged for a closer look

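In 7 of the named windows the difference between the marks in MCF-10A departed from that in MDA-MB-231 by a limma interaction of mark and line at an adjusted p under 0.05. The values are log2 differences of H3K27me3 minus H3K9me2 in MCF-10A, less the same in MDA-MB-231. The window on chromosome 17 from 77000001 gave 2.10 (adjusted p = 0.00143), with 3.90 in MCF-10A and 1.80 in MDA-MB-231. On chromosome 11 the window from 117000001 gave 3.06 (adjusted p = 0.000316) and the window from 43000001 gave 2.97 (adjusted p = 0.0184). In the first of these MDA-MB-231 had 76 and 286 H3K27me3 peaks but also 49 and 37 H3K9me2 peaks, against 4 and 3 H3K9me2 peaks in MCF-10A. In the second it had 3 and 22 H3K27me3 peaks. On chromosome 20 the window from 2000001 gave 2.44 (adjusted p = 0.00418) and the window from 61000001 gave 1.65 (adjusted p = 0.00250).

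Towards H3K9me2, the window on chromosome 18 from 14000001 gave -2.33 (adjusted p = 0.0467), from -4.57 in MCF-10A and -2.24 in MDA-MB-231. The window on chromosome 7 from 143000001 gave -1.44 (adjusted p = 0.0184), from -2.37 and -0.93. With peaks of score 100 or more the MCF-10A difference of the latter was -0.52 and was not called. All 7 windows differed in the same direction in both lines and further in MCF-10A. They were named for large differences in MCF-10A, so this direction is partly set by the choice. The short list of MDA-MB-231 H3K27me3 replicate 1 enters each value. Without it the interaction called 168 windows towards H3K27me3 and 299 towards H3K9me2, against 165 and 267 with it.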

How the results depend on the processing

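Depth is unknown, and 2 replicates per group limit the precision. Of the named windows' results under other settings, 262 kept direction and call, 8 lost the call and 0 reversed. These windows were picked for their difference or p, so they do not stand for all calls. With peaks of score 100 or more, where 1491 windows were tested, 204 of the 390 windows higher in H3K27me3 were called again. Of the 701 higher in H3K9me2, 249 were called again, and 2 on each side were called the opposite way. With equal list lengths 244 and 490 were called again. For autosomes 124 kept direction and call, 3 lost the call and 5 gained it. With peaks of score 100 or more, 2.33% of H3K27me3 and 7.44% of H3K9me2 peaks overlapped, the Jaccard index was 0.0159, median distances were 212 kb from H3K27me3 and 109.8 kb from H3K9me2, regions numbered 74 (both marks), 3445 (H3K27me3 only) and 1085 (H3K9me2 only), and 346 and 317 windows were higher in H3K27me3 and H3K9me2. With equal list lengths the overlaps were 5.79% and 5.19%, the Jaccard index 0.0210, the distance from H3K9me2 149.9 kb, and regions 224 and 3777 for both marks and H3K27me3 only. Asking for 50% of a peak covered gave 4.57% for H3K9me2, and 122 regions with both marks. Distances between centres gave 44.9 kb from H3K9me2. Taking a peak in either replicate gave 2042, 39761 and 10923 regions.

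Windows rich in H3K27me3 and poor in H3K9me2 numbered 5 and 77 with the top 5% and 20%, 13 by peak centres and 142 with 250 kb windows; the opposite kind numbered 5, 64 and, with 250 kb windows, 86. Windows of 250 kb gave 1186 and 1941 calls. The log2 difference at chromosome ends turned to -0.016 with the share of peaks. Same-numbered replicates did not deviate together (r = -0.018 over 1955 windows, 2 pairs), and the replicate block gave 418 and 687 window calls, 89 and 169 interaction calls and 8 and 9 autosome calls.

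Leaving out each replicate in turn gave 149 to 362 and 235 to 560 window calls, 584 to 784, 10651 to 26656 and 5192 to 8683 regions, 32 to 38 and 18 to 30 rich windows, and 102 to 234 and 164 to 336 interaction calls; the lone sample is then assumed to vary like the other group. The construction with fewer samples asks for 1 peak less in regions and rich windows. Other causes were not tested.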
